A study of Homo sapiens with 24 samples.

Results

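Zinc finger transcription factors are the largest family of DNA-binding proteins encoded in the human genome, and their genes carry names formed from ZNF and a number. In the classical C2H2 finger, a pair of cysteines and a pair of histidines hold a zinc ion and fold a short stretch of protein that reads a few bases of DNA. Neighbouring fingers are joined by a conserved linker, and many members carry a KRAB domain that recruits TRIM28 and the histone methyltransferase SETDB1 to silence genes and transposable elements. Many of the KRAB members sit in clusters on chromosome 19 that grew by duplication, so that their finger-coding sequences resemble each other.

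The ZNF mRNAs described here were chosen by measured values, namely the catalog probes of the array whose gene name was ZNF followed by a number and whose signal was well above background on all 6 total RNA arrays. This criterion kept 263 probes for 232 genes, out of 354 probes for 293 ZNF genes and 17535 catalog probes in all. For 202 genes there was 1 probe and for 30 genes 2 or 3. Of the probes not kept, 35 were well above background on none of the 6 total RNA arrays and 27 on 5 of them. Mean levels in total RNA ran from 5.63 to 18.7 on the log2 scale among the probes kept. They ran from 5.30 to 11.5 among the 27 probes detected on 5 arrays, so the criterion was no strict cut in level. At the lower edge, ZNF566 (5.63) and ZNF563 (5.65) were kept, while probes of ZNF668 (11.5) and ZNF295 (10.3) each missed it on 1 array. Another probe of ZNF295 was kept. Another 2 kept probes carried an outlier mark on an array and were left out of the fits, leaving 261.

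The cells were MRC5, a human lung fibroblast line, kept untreated (control) or exposed to 0.2 mM H2O2 for 2 h (oxidative stress, OS). Total RNA and 3 pools from sucrose gradients were hybridised to a custom 1-colour array, with 3 replicates in each of the 8 groups. The untranslated pool held gradient fractions 1 to 9 (free ribonucleoprotein particles and single ribosomes), the low pool fractions 10 to 14 (light polysomes) and the high pool fractions 15 to 23 (heavy polysomes). All lysates for gradients came from cells given cycloheximide before harvest, and the methods describe 3 runs of the procedure, each with its own RNA preparation. Every array was made from the same mass of RNA by oligo-dT priming and was then normalized to a common distribution, so each value tells the standing of an mRNA among the other mRNAs of its pool. Fewer cells and less RNA per cell cannot be told apart in such bulk samples.

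The share of mRNA probes well above background was 43.6% to 67.8% on 23 arrays and 95.4% on the array of OS low replicate 3, which stood apart. Counts are therefore given with and without that array. The fibroblast markers COL1A1, COL3A1, THY1 and LUM were well above background on all 6 total RNA arrays, COL1A1 between 17.4 and 17.8 on the log2 scale. EPCAM, an epithelial marker, was so on 2 arrays and VWF, an endothelial one, on none. SFTPC, CDH5 and 1 of 3 PTPRC probes were above background on all 6, at levels between 5.69 and 7.27.

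The array reads each mRNA with a 60-base probe, and 29 of the 263 ZNF probes (11.0%) spelled out part of a zinc finger or of the linker, against 7 of 17181 catalog probes without a ZNF name (0.0407%). The letters searched, in the 3 forward reading frames, were codons for the linker (threonine, glycine, glutamate, lysine or arginine, proline, with a histidine shortly before or an aromatic residue right after) and for the finger start (cysteine, any 2 residues, cysteine, glycine, lysine or arginine, any residue, phenylalanine). The linker stretches are shown because their near identity across genes marks these probes as readers of the repeated part of the family. Capitals mark the linker codons, and the strands run 5′ to 3′ along the mRNA.
ZNF85, chr19:21132406-21132435 (GRCh37, plus strand): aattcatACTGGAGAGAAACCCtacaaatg
ZNF568, chr19:37441117-37441146 (plus strand): aattcatACTGGGGAGAAACCTtatgcatg
ZNF600, chr19:53269594-53269623 (minus strand): aattcacACCGGAGAGAAACCAtacaaatg
ZNF416, chr19:58083615-58083644 (minus strand): ttcacACAGGAGAAAGGCCAtatgagtgtg
ZNF133, chr20:18297289-18297318 (plus strand): gacacatACGGGGGAGAAGCCAtatgtgtg
ZNF727, chr7:63538596-63538625 (plus strand): acACTGGAGAGAAACCCtacaaatgtgaag

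The finger starts of 3 further probes, with the finger codons in capitals, belong to genes whose values are given below.
ZNF254, chr19:24309853-24309882 (GRCh37, plus strand): aaaTGTGAAGAATGTGGCAAAGCTTTTagc
ZNF419, chr19:58005039-58005068 (plus strand): aagTGCAGCGACTGTGGGAAATTTTTTacc
ZNF542, chr19:56889171-56889200 (plus strand): acaTGCCATGCCTGTGGGAAGGCCTTTaat

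Of the ZNF probes, 10 shared a run of 20 or more bases with a catalog probe of another name. The ZNF254 and ZNF727 probes shared 30 bases, and the ZNF493 and ZNF727 probes 29. The probe of ZNF525 shared 38 of its 60 bases with a probe of RPL39, a ribosomal protein gene, and that of ZNF713 shared 38 with a probe of GBP6. The ZNF713 probe also shared 36 bases with a probe of POLR2J2, 29 with one of ACBD7 and 20 with one of TTC28. The first 30 shared bases of the run in ZNF525, in capitals, show what else that probe may read.
ZNF525 and RPL39: GTTACCATATCAAGCTGAAAATGTCACCAC
Values under the names ZNF525 and ZNF713 are thus uncertain as to the gene. Chromosome 19 held 46.9% of the 262 ZNF probes with a position, against 4.82% of 17042 catalog probes without a ZNF name.

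ZNF mRNAs stood lower upon OS in every RNA pool. By the median over all 261 probes of each array, the gap between control and OS arrays was widest in the untranslated pool. On each array the median of the ZNF probes was set against the median of the 9221 other mRNA probes that met the same detection criterion. In the untranslated pool this difference was -0.89, -0.99 and -1.03 (log2) on the 3 control arrays and -2.01, -1.99 and -1.93 on the 3 OS arrays. The means were -0.97 ± 0.07 and -1.98 ± 0.05 (SD, n = 3), and the arrays of the 2 groups lay far apart. In total RNA it was -1.25, -1.32 and -1.20 in control cells and -1.60, -1.61 and -1.52 upon OS. The total RNA arrays chose the probes, so these values are a description only. In the high pool it was -1.20, -1.14 and -1.11 in control cells and -1.38, -1.43 and -1.31 upon OS, again without overlap. In the low pool the control arrays read -0.89, -0.90 and -0.74 and the OS arrays -1.31, -1.15 and -2.28. The last of these was the array that stood apart, and the other 2 OS arrays also lay below all control arrays. On the OS untranslated arrays 60.5%, 62.1% and 68.6% of the ZNF probes were well above background, so their medians rest partly on signal near background. By the median of per-probe differences over tested probes, the low pool fell more than the untranslated pool with all arrays (-0.91 against -0.76). Without OS low replicate 3 it fell less (-0.49 against -0.77).

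**Figure D1:**
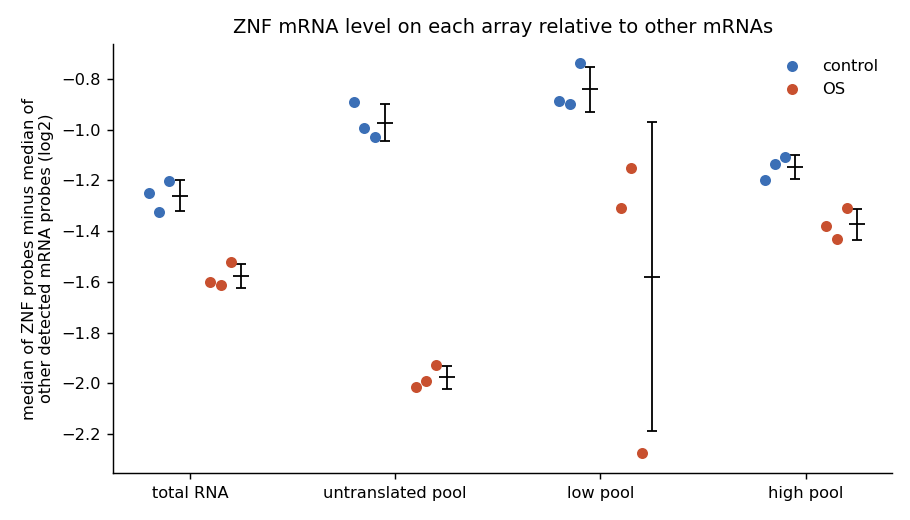
Median log2 signal of the 261 ZNF probes minus the median of 9221 other detected mRNA probes (vertical axis), one point per array, by RNA pool; blue points are control arrays, orange points OS arrays, and bars give the mean and SD of 3 arrays. OS arrays lie below control arrays in every pool, with the widest gap in the untranslated pool (-0.97 against -1.98), and 1 OS array of the low pool lies at -2.28. Every array includes all 261 probes, also those not above background in its pool.

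Total RNA arrays chose the probes, so their differences are given as a description. The median OS minus control difference was -0.29 (log2), and 205 of 261 probes were lower upon OS. By limma with Benjamini-Hochberg adjustment over all tested lncRNA and mRNA probes, 17 were called lower and 3 higher, where 3.06% and 3.07% of all 10630 tested mRNA probes were so called, and 2.69% and 1.90% of the other mRNA probes detected on the same 6 arrays. Because these arrays chose the probes, nothing is read from these counts. Without OS low replicate 3, 63 were called lower, with a background of 7.71%. The steepest estimates were those of ZNF107 (-1.58), ZNF595 (-1.47), ZNF658 (-1.44), ZNF767 (-1.41, a gene that RefSeq now lists as the pseudogene ZNF767P) and ZNF555 (-1.36). ZNF555 read 9.29, 9.16 and 9.18 in control and 7.88, 7.83 and 7.84 in OS total RNA. At the other end stood ZNF410 (1.65), ZNF865 (1.58), ZNF425 (1.39), ZNF596 (0.84) and ZNF169 (0.71). A second ZNF865 probe had -0.04, so the value for that gene depends on the probe. The estimate of ZNF410, which encodes an activator of the chromatin remodeller gene CHD4, came from 1 array: control replicate 1 read 6.85 where the other 5 total RNA arrays read 11.8 to 11.9. ZNF425 read 8.36, 8.07 and 8.20 in control cells and 9.59, 9.73 and 9.47 upon OS, against the direction of most of the family.

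The first question the gradients answer is how the family changed among mRNAs not engaged in polysomes. Of 180 ZNF probes tested in the untranslated pool, 86 were called lower upon OS (47.8%) and 4 higher (2.22%). Among all 8025 mRNA probes tested there, 15.7% were called lower and 15.8% higher. The median ZNF difference was -0.76 (log2), a 1.69-fold lower level, while the median of all mRNA probes was -0.04. In all, 153 of the 180 estimates were below 0, called or not. Only 6.23% of the other mRNA probes lay at or below the ZNF median. A probe could enter this test through 1 group alone, since 175 probes were detected on every control array of the pool and 140 on every OS array. Among the 135 detected on all 6 arrays, 60 were called lower and 3 higher, with a median of -0.64, beside -0.06 for all mRNA probes so detected. The share of all mRNA probes called under that stricter filter is not given here, so these counts stand without a background. Without OS low replicate 3, 132 of 180 were called lower, beside 25.5% of all mRNA probes, and all 86 were among them. Scaling to the 75th percentile in place of quantile normalization left 14 called lower and none higher by limma (3 higher at an unadjusted p under 0.05), with a median of -0.64; with that scaling and without OS low replicate 3, 102 were called lower.

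Among probes detected on every array of the pool, with groups that did not overlap, 60 fell. ZNF555 had the steepest fall, from 9.97, 9.92 and 10.01 in control cells to 7.73, 7.45 and 7.79 upon OS (-2.31 ± 0.56, estimate and SE, adjusted p = 0.0059). Each SE and adjusted p given with an estimate uses the limma spread of that probe over all 8 groups, not over the compared groups alone. For ZNF555 that spread includes 4.87 on OS low replicate 3, where OS low replicates 1 and 2 read 8.24 and 8.52. Without that array its adjusted p by limma was 8.4e-12. ZNF613 fell by 2.03 (SE 0.38, adjusted p = 0.00068), from 10.25, 9.88 and 10.05 to 7.73, 8.10 and 8.27. ZNF17 read 9.66, 9.61 and 9.49 in control cells and 7.27, 8.02 and 7.58 upon OS (-1.97 ± 0.32, adjusted p = 0.00019). Every OS array of these 3 genes lay at least 1 log2 unit below every control array. ZNF830, whose product associates with the splicing machinery, fell by 1.54 (adjusted p = 0.0097). ZNF451, which encodes a SUMO ligase, fell by 1.50 (adjusted p = 0.0010), from 10.15, 9.86 and 10.06 to 8.52, 8.39 and 8.67.

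Only 3 such probes rose in the untranslated pool. ZNF469, mutated in the connective tissue disorder brittle cornea syndrome, read 10.94, 10.74 and 10.62 in control cells and 11.99, 12.22 and 12.01 upon OS (1.31 ± 0.13, adjusted p = 1.1e-06). ZNF264 read 9.15, 8.28 and 8.99, then 9.69, 10.00 and 9.90 (1.05 ± 0.19, adjusted p = 0.00043). ZNF808 read 8.54, 8.96 and 8.82, then 9.42, 9.60 and 9.28 (0.66 ± 0.23, adjusted p = 0.044). A second probe of ZNF808 had an estimate of -0.84 in this pool, so the direction for that gene depends on the probe.

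In the high pool, whose mRNAs sit on heavy polysomes, the family fell less. Of 258 probes tested, 16 were called lower (6.20%) and 5 higher (1.94%), beside 2.83% and 3.57% of 10266 mRNA probes. The median difference was -0.21, with 178 estimates below 0. Without OS low replicate 3, 51 were called lower (19.8%), beside 6.29% of mRNA probes. Scaling to the 75th percentile called 3 lower and 2 higher. ZNF595 fell by 1.37 (SE 0.24, adjusted p = 0.0012), from 7.96, 7.75 and 7.81 to 6.22, 6.46 and 6.72, and it was among the steepest in total RNA as well. ZNF469 fell by 1.20 (adjusted p = 1.1e-05), from 13.87, 13.78 and 13.64 to 12.76, 12.48 and 12.45. Its direction was thus opposite to the one in the untranslated pool. ZNF254 (-1.03), ZNF791 (-0.89) and ZNF727 (-0.79) completed the 5 lowest, and the probes of ZNF254 and ZNF727 are the 2 that share 30 bases. ZNF791 fell in the untranslated pool as well, by 2.03 (adjusted p = 3.4e-06), though only 2 of 3 OS arrays were above background there.

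The 4 probes that rose in the high pool with separate groups were those of ZNF789, ZNF7, ZNF133 and ZNF688. ZNF789 read 7.51, 7.63 and 7.87 in control cells and 9.27, 9.22 and 9.34 upon OS (1.61 ± 0.43, adjusted p = 0.032), while in total RNA its estimate was -0.16. Another ZNF789 probe had an estimate of -0.36 in the untranslated pool, where this one had 1.25. ZNF7 rose by 0.73 (adjusted p = 0.00028), ZNF133 by 0.62 (adjusted p = 0.0049) and ZNF688 by 0.55 (adjusted p = 0.0016). ZNF865 was well above background on none of the 3 control high-pool arrays and on all 3 OS ones, at 7.03, 6.79 and 6.84. Its level was at least 3.03-fold higher upon OS, measured against the dimmest detected signal of the control arrays (adjusted p = 0.00037). This probe entered the test through the OS arrays alone, and the other ZNF865 probe, detected on every array of the pool, had 0.03.

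**Figure D2:**
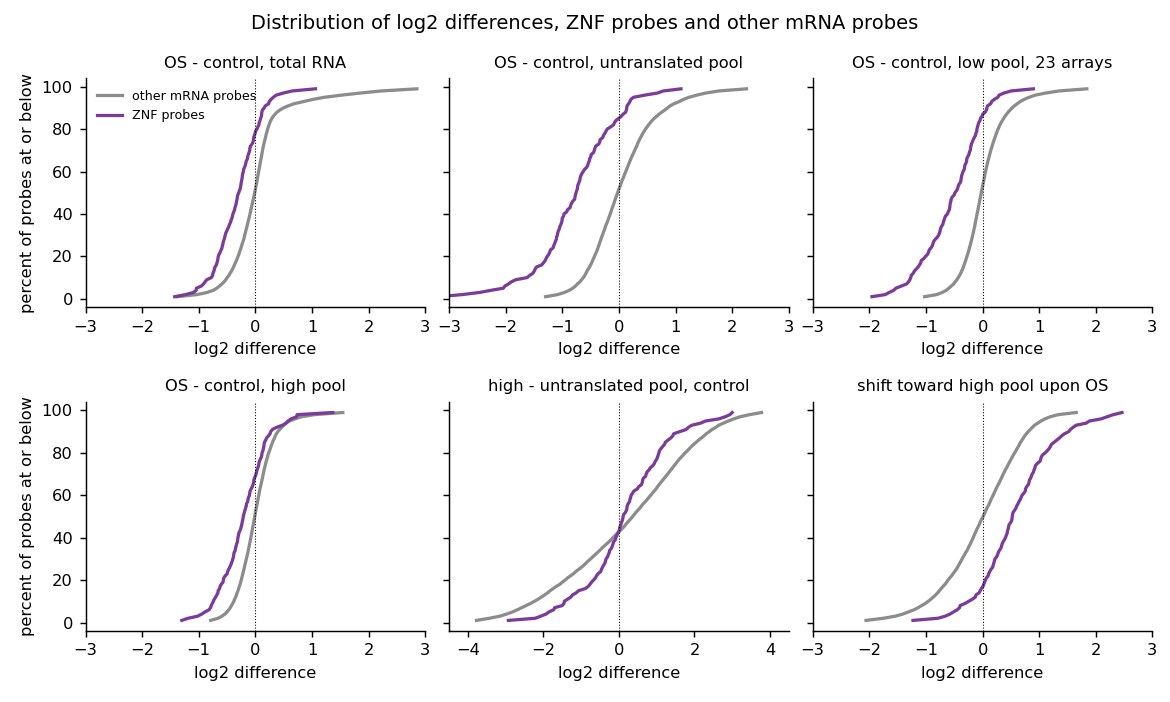
Cumulative percent of probes (vertical axis) at or below a given log2 difference (horizontal axis) for ZNF probes (purple) and all other tested mRNA probes (grey), in 6 comparisons, with the extreme tails left out and the low pool without OS low replicate 3. At the median the purple curve lies left of the grey one in all 4 OS against control panels, farthest in the untranslated pool (-0.76 against -0.02), and right of it in the panel of the shift (0.52 against 0.01).

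In the low pool 93 of 260 probes were called lower (35.8%) and 1 higher (0.385%), beside 5.45% and 4.42% of 10806 mRNA probes. The median difference was -0.91 with all arrays and -0.49 without OS low replicate 3, when the median of all mRNA probes moved from -0.18 to -0.03. Without that array 89 were called lower (34.2%), beside 4.69% of mRNA probes, and 81 probes were called lower both ways. With the 2 groups of this pool alone in the limma fit, none was called, and 71 were lower at an unadjusted p under 0.05. The 5 lowest were ZNF416, ZNF93, ZNF555, ZNF658 and ZNF845, with estimates between -2.99 and -2.55. All 5 owed part of that size to the array that stood apart: without it the estimates were -1.47, -1.95, -1.73, -1.96 and -1.32, each with an adjusted p of 0.00039 or less. A second ZNF416 probe, the one whose linker letters are shown above, had -0.92 with all arrays and was not called. A second ZNF658 probe had -1.77 with all arrays and was called lower. ZNF93, whose protein represses L1 retrotransposons, read 8.40, 8.41 and 8.65 in control cells and 6.41, 6.76 and 3.33 upon OS.

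The control cells show where these mRNAs sat before stress. Of 255 probes, 58 were called higher in the high than in the untranslated pool (22.7%) and 52 lower (20.4%), beside 42.2% and 31% of 9880 mRNA probes. All 52 lower calls but 27 of the 58 higher ones were of probes detected on every array of both groups, the others having entered through the high pool alone. The median high minus untranslated difference was 0.11, against 0.35 for all mRNA probes. With detection required in both groups it turned to -0.14 (28 higher and 53 lower of 174), so no direction is read from it. This split moved with the scaling, since the 75th percentile called 184 higher and 6 lower while the median of all mRNA probes rose to 1.64. Relative to the median of all mRNA probes, the ZNF median ran from -0.24 to 0.21 over the alternatives. Highest in the high pool were ZNF469 (3.00 ± 0.13), ZNF264 (2.80 ± 0.19), ZNF503 (2.27 ± 0.15), a developmental repressor gene, ZNF696 (1.85 ± 0.56) and ZNF281 (1.65 ± 0.18), a regulator of stem cell and mesenchymal genes.

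Lowest in the high pool were ZNF525 (-3.39 ± 0.12), both probes of ZNF542 (-3.16 ± 0.17 and -2.88 ± 0.19), ZNF688 (-2.98 ± 0.10) and ZNF713 (-2.31 ± 0.15). The ZNF525 probe is the one whose letters run into RPL39, and the 2 RPL39 probes had estimates of -2.74 and -3.81 in the same comparison. Of the probes that share letters with that of ZNF713, those of GBP6 and POLR2J2 had -2.15 and -3.37. RefSeq lists ZNF542 as the pseudogene ZNF542P. Its first probe read 11.33, 11.73 and 11.38 in the control untranslated pool and 8.10, 8.46 and 8.39 in the control high pool.

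The design also asks whether OS moved an mRNA between the pools, measured as the high minus untranslated difference upon OS less the same difference in control cells. By this interaction, 32 of 258 ZNF probes gained in the high pool over the untranslated one (12.4%), beside 8.04% of 10369 mRNA probes, and 4 moved away (1.55%), beside 8.03%. Of the 258, 134 were detected on every array of the 4 groups, and so were 20 of the 32 and all 4 that moved away; the others entered through some of the groups alone. Tested on their own, the 134 gave 30 toward and 5 away, with a median of 0.48, beside 0.06 for all mRNA probes so detected. The share of all mRNA probes called under that stricter filter is not given here, so these 2 counts stand without a background. The median shift was 0.52 (log2, a 1.44-fold change in the ratio of the pools) against 0.02 for all mRNA probes, and 215 of 258 estimates were above 0. Among the 9221 other mRNA probes detected in total RNA the median was 0.01, with 788 called toward and 816 away of 9025 tested. Without OS low replicate 3, 101 were called toward (39.1%), beside 16.7% of mRNA probes, and 6 away, and all 32 were among the 101. Scaling to the 75th percentile called 1 toward and none away by limma (median 0.36, with 3 away at an unadjusted p under 0.05), and 33 and 5 when OS low replicate 3 was also left out.

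Of the 32 probes called toward the high pool, 31 were lower upon OS in the untranslated pool. In the high pool 17 of them were higher and 15 lower. The shift subtracts the untranslated change, so a call toward the high pool favours probes that fell in the untranslated pool. Of all 180 ZNF probes tested there, 153 were lower, and nothing is read from this split. Over the 180 probes tested in both pools, 111 were lower in both, 42 were lower in the untranslated pool alone, 13 were lower in the high pool alone and 14 were higher in both. Within each slide, which held 1 array of every group, the median shift was 0.53, 0.50 and 0.65, and the median untranslated difference was -0.73, -0.70 and -0.86.

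**Figure D3:**
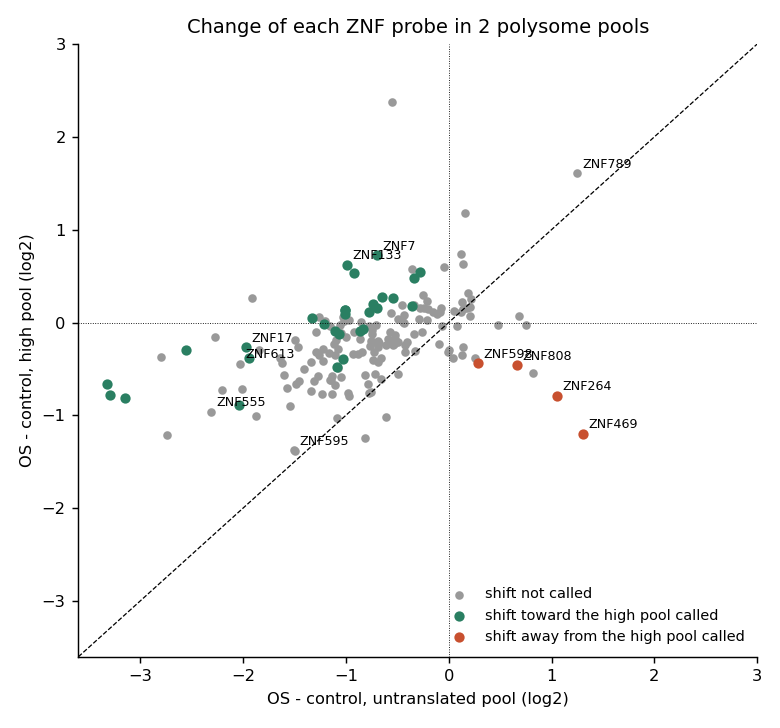
OS minus control log2 difference of each of 180 ZNF probes in the untranslated pool (horizontal axis) and the high pool (vertical axis); the dashed line marks equal change, green points are probes whose shift toward the high pool was called and orange points those called away. Most points lie left of 0 and above the dashed line, and ZNF469, ZNF264, ZNF808 and ZNF598 lie at the lower right.

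Among probes detected in all 4 groups with separate gradients, ZNF17 had the largest shift (1.70 ± 0.45, adjusted p = 0.021), followed by ZNF133, ZNF419, ZNF7 and ZNF542. ZNF133, a KRAB repressor gene, fell in the untranslated pool from 10.34, 10.23 and 10.26 to 9.31, 9.09 and 9.46. In the high pool it rose from 9.74, 9.59 and 9.64 to 10.27, 10.25 and 10.31, for a shift of 1.62 (SE 0.18, adjusted p = 2.8e-05). Its groups were well separated in both pools, in opposite directions, while the total RNA estimate was -0.24. ZNF7 behaved alike, with -0.70 in the untranslated pool, 0.73 in the high pool and a shift of 1.42 (adjusted p = 2.0e-05). ZNF419 (1.45, adjusted p = 0.0074) and ZNF542 (1.15, adjusted p = 0.012) were called as well.

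The 4 genes that moved away were ZNF469 (-2.51 ± 0.19, adjusted p = 7.1e-07), ZNF264 (-1.84 ± 0.27, adjusted p = 0.00033), ZNF808 (-1.12 ± 0.32, adjusted p = 0.034) and ZNF598 (-0.72 ± 0.17, adjusted p = 0.010). The second ZNF808 probe had a shift of 0.52, opposite in sign. ZNF598 encodes the ubiquitin ligase that marks ribosomes stalled on an mRNA. It read 10.77, 10.50 and 10.67 in the control high pool and 10.23, 10.35 and 10.06 upon OS (-0.44 ± 0.12, adjusted p = 0.034). In the untranslated pool it read 9.82, 10.09 and 9.91, then 10.12, 10.24 and 10.33 (0.29 ± 0.11, adjusted p = 0.076). These 4 probes were higher in the high pool of control cells, with high minus untranslated differences from 0.71 to 3.00, while the second ZNF808 probe had 0.22. The shift subtracts this control difference, so choosing probes that moved away favours a high one, and nothing is read from it.

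**Figure D4:**
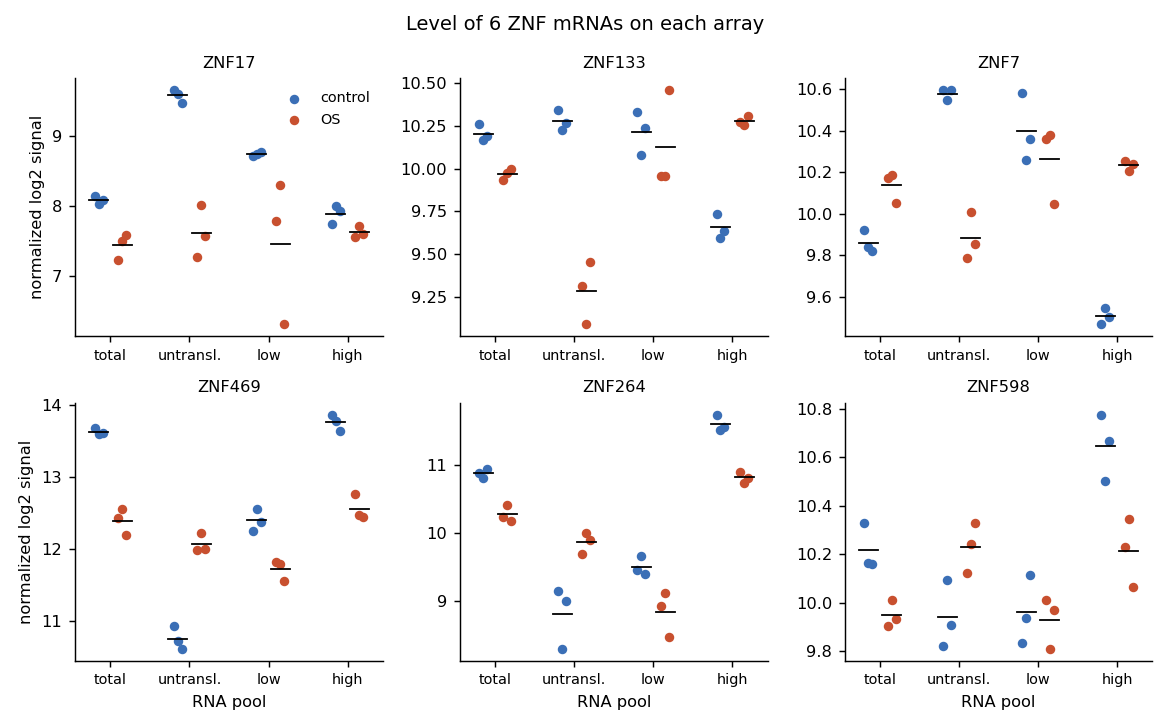
Normalized log2 signal (vertical axis, a separate range for each gene) of 6 ZNF mRNAs on each array, by RNA pool (untransl., untranslated); blue points are control arrays, orange points OS arrays, black bars the means of 3. ZNF17, ZNF133 and ZNF7 fall upon OS in the untranslated pool, whereas ZNF469 and ZNF264 rise there and fall in the high pool.

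Of 14 genes listed for a well-known role, 7 were detected. ZNF350, a KRAB repressor that binds BRCA1, fell in both pools, by 1.34 in the untranslated pool (9.25, 8.93 and 9.24 to 8.07, 7.53 and 7.80, adjusted p = 1.2e-05) and by 0.74 in the high pool (adjusted p = 0.0095). ZNF281 fell by 0.76 and 0.75 in the same pools (adjusted p = 0.0044 and 0.016), with a shift of 0.01. One probe of ZNF24 fell by 1.10 in the untranslated pool (adjusted p = 6.7e-07), with -0.09 in the high pool and a shift of 1.02 (adjusted p = 0.00052). Its other probe had 0.08 and -0.04, so the 2 probes of that gene disagree. Of 2 probes of ZNF217, an oncogene amplified in breast cancer, 1 fell in the untranslated pool (-0.64, adjusted p = 0.016) and the other had -0.25 (adjusted p = 0.35). ZNF410 had -0.45 in the untranslated pool and 0.00 in the high pool, and ZNF10, the source of the KRAB domain used in synthetic repressors, had 0.67 in the high pool (adjusted p = 0.41).

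Where 2 probes of a gene could be compared in the untranslated pool (15 genes), the estimates had the same sign for 12. Both probes were called for 2 genes and only 1 of the 2 probes for 12. In the high pool 25 of 29 genes had probes of the same sign, and for the shift 24 of 29. Calls rarely extended to every probe of a gene. In the high pool 4 genes had some probes called and 0 had all. For the shift these counts were 9 and 1. No gene had probes called in opposite directions in an OS against control comparison. In the high against untranslated comparison of control cells, 13 of 27 genes had probes of opposite sign and 2 were called both ways, ZNF254 and ZNF789.

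Chromosome 19 and the finger-reading probes were not tested against the rest and are given as counts. Of all mRNA probes tested, 15.7% were called lower in the untranslated pool and 8.04% were called toward the high pool. Here too a probe could enter a test through some of the groups alone. In the untranslated pool 46 of 77 probes on chromosome 19 were called lower (median -1.03) and 40 of 102 on other chromosomes (median -0.60). The shift was called toward the high pool for 17 of 121 and 15 of 136, with medians of 0.74 and 0.46. Of the probes that spell finger or linker codons, 17 of 20 were called lower in the untranslated pool (median -1.08). Probes without such codons were called lower in 69 of 160 cases (median -0.72).

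Other zinc finger families and the KRAB co-repressors were read from short lists, whose shares were not tested against those of the ZNF probes. Among all mRNA probes tested, 15.8% were called higher and 15.7% lower in the untranslated pool. For the shift, 8.04% were called toward the high pool and 8.03% away. With so few probes per list, nothing is read from the counts. Of 14 detected ZBTB probes, 1 of the 7 tested was lower in the untranslated pool (ZBTB17, -0.54) and none had a called shift by limma (3 of 14 at an unadjusted p under 0.05). Among 8 KLF probes, KLF4 rose in total RNA (2.27) and in the high pool (2.30, adjusted p = 0.00066), in the untranslated pool KLF4 rose (1.74, adjusted p = 0.0026) and KLF3 fell (-0.68). No KLF shift was called by limma, nor was any at an unadjusted p under 0.05. Of 6 ZFP probes, the shift was called for 3. ZFP36, which encodes the mRNA-destabilising protein tristetraprolin and is no C2H2 factor, rose by 2.08 in the high pool, with a shift of 2.47 (adjusted p = 1.4e-05). ZFP90 shifted by 0.77 and ZFP106 by -1.40. Of 3 ZKSCAN probes, 1 of the 2 tested in the untranslated pool rose (ZKSCAN2, 0.63) and 1 fell (ZKSCAN5, -0.74). The 3 ZSCAN probes had no OS call by limma, with 1 of 3 at an unadjusted p under 0.05 in each of total RNA, the untranslated pool and the low pool.

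Of 22 co-repressor probes for 16 detected genes, 20 were tested in the untranslated pool, where 3 rose and 2 fell, near or below the shares of all mRNA probes there (15.8% and 15.7%). None of 22 was called in the high pool by limma (3 at an unadjusted p under 0.05). Their median shift was 0.10, with 1 of 22 called toward the high pool and 3 away, beside 8.04% and 8.03% of all mRNA probes. CBX5, which encodes heterochromatin protein 1 alpha, shifted by -2.04 at one probe (adjusted p = 1.8e-05) and had 0.28 at its other probe (adjusted p = 0.67), so its direction depends on the probe. The chromatin remodeller gene CHD3 shifted by -1.30 (adjusted p = 0.00019). FAM208A, which encodes a subunit of the HUSH silencing complex, also shifted away at one probe (adjusted p = 0.00026), which rose by 1.49 in the untranslated pool, and had -0.63 at its other probe (adjusted p = 0.81).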

How the data were processed

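RNA was labelled with Cy3 and scanned on 24 custom Agilent arrays, and per the file headers intensities were extracted with Feature Extraction 10.7.3.1 on a GRCh37 design. The deposited files hold the processed signal intensity of each spot, and a deposited table holds normalized log2 values, which the authors made in Partek (version not given in the sources used here). That table differed by at most 0.0857 from log2 signals quantile-normalized here over all probes together. Here, following the authors' methods, quantile normalization of log2 processed signals was run once on 43911 lncRNA probes and once on 17448 mRNA probes. The authors also took out anomalous replicates, which they did not name, and then normalized again. The main fit here departs from this, since it kept every array, OS low replicate 3 included. Control spots and 178 probes with an outlier mark were left out. No probe was saturated. Tests took the probes whose signal cleared background (the scanner software's own call) on all arrays of 1 or more of the groups compared. All 24 arrays entered 1 limma 3.58.1 fit in R 4.3.3 (8 group means, no block). Benjamini-Hochberg adjustment ran over lncRNA and mRNA probes together, and calls were made at an adjusted p under 0.05. The model was tested on simulated data with normal noise and no outlying array. That simulation therefore does not bear on the effect of OS low replicate 3. The number of arrays limits the precision.

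The ZNF probes, gene lists and markers were chosen with earlier results of these data known. Genes were named by rule: in each comparison, the 5 highest and 5 lowest called probes detected on every array of the groups compared and with groups that did not overlap (gradients of equal number for the shift); the 5 highest and lowest total RNA estimates; genes with a known role; and for other lists the called probes with the largest estimates. ZNF865 in the high pool, ZNF791 in the untranslated pool and the shared letters of probes were added after values were seen. Accessions matched 253 of 263 probes to RefSeq (GRCh38.p14) symbols, of which 10 differed from the array's name. Sequences and GRCh37 positions come from the array's annotation. The values of 1 co-repressor gene and the letters of 1 shared run are not reported here. Protein sequences were not used here, so ZNF proteins were not divided by domain. Replicate numbers were not used as pairs in the fit: deviations of equally numbered arrays correlated between -0.35 and 0.46, without a pool in which all 3 pairs exceeded 0.1. Only the naming rule for the shift took differences of equally numbered arrays, although equally numbered control untranslated and control high arrays lay on different slides. Control and OS untranslated arrays of the same slide correlated between 0.13 and 0.42, so the slide was tried as a block and values were also taken within slides. Control untranslated replicates 1 and 2 carry 1 label number but differed as other replicates did (SD of the log2 difference 0.366, rank 19 of 24 pairs) and were kept apart. Alternatives were other normalizations, filters, blocks, samples in the fit, and leaving out each array of the groups compared. Leaving out OS low replicate 3 together with 75th percentile scaling was chosen after seeing the data.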

Additional observations from a re-analysis of the deposited data

Results flagged for a closer look

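By the interaction test, the effect of OS differed between the high and the untranslated pool for some ZNF probes. Called toward the high pool were 32 of 258 (12.4%), beside 8.04% of mRNA probes. Called away from it were 4 (1.55%), beside 8.03%. Of the 32, 15 were lower upon OS in the high pool, and 75th percentile scaling left 1 called toward it. The called probes with the largest estimates among those detected in all 4 groups were ZNF17 (1.70), ZNF133 (1.62), ZNF419 (1.45), ZNF7 (1.42) and ZNF542 (1.15) toward the high pool, and ZNF469 (-2.51), ZNF264 (-1.84), ZNF808 (-1.12) and ZNF598 (-0.72) away from it. Outside the probes described, 51 of 91 further ZNF probes cleared background on all 3 arrays of a gradient group other than OS low, although each missed detection on 1 or more total RNA arrays. Outliers within groups were not searched for, because every group had 3 arrays.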

How the results depend on the processing

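The median ZNF difference kept its sign in every alternative for OS against control in the 4 RNA pools and for the shift; in control cells the high against untranslated median turned from 0.11 to -0.14 with the stricter filter (detected on all arrays of both groups). Counts moved more. Called lower in total RNA were 17 probes, 63 without OS low replicate 3, 90 when this went with 75th percentile scaling and 112 with the compared groups alone in the fit (8 to 13 leaving out 1 array, lowest without control total replicate 1). In the untranslated pool 86 became 14 with 75th percentile scaling and 132 without OS low replicate 3 (68 to 79 leaving out 1 array). In the low pool 93 became 154 with 75th percentile scaling, 140 with normexp and 0 with the compared groups alone, by limma, where 71 were lower at an unadjusted p under 0.05 (50 to 160 leaving out 1 array: 146 without OS low replicate 1, 160 without replicate 2, and 60, 61 and 50 without control low replicates 1, 2 and 3). In the high pool 16 became 3 with 75th percentile scaling, 7 with no filter, 51 without OS low replicate 3, 50 when this went with 75th percentile scaling and 52 with the compared groups alone (8 to 12 leaving out 1 array, lowest without control high replicate 1). In control cells 58 probes higher in the high pool became 129 with quantile normalization over all probes and 129 with the deposited table, 184 with 75th percentile scaling, 159 with normexp, 28 with the stricter filter, 90 without OS low replicate 3 and 208 when this went with 75th percentile scaling (51 to 60 leaving out 1 array); the 52 lower became 22, 22, 6 and 23 under the 4 scalings in that order, and 9 in the last (45 to 50 leaving out 1 array). The 32 shifted toward the high pool became 19, 19, 1 and 14 under the same 4 scalings, 18 with no filter, 101 without OS low replicate 3 and 61 with the compared groups alone (22 to 32 leaving out 1 array). The cause was not tested. Replicate numbers did not pair the arrays, and the replicate block left 85 called lower in the untranslated pool and 32 shifted; the slide block left 85 and 32. Of the named values, the high against untranslated estimate in control cells turned from -0.09 for ZNF350 to 0.73 (all probes), 1.58 (75th percentile, with and without OS low replicate 3), 0.59 (normexp) and 0.72 (deposited table), and from -0.06 for a ZNF217 probe to 1.72 (75th percentile, both ways) and 0.53 (normexp). Signal near background limits the untranslated pool, where 44 ZNF probes were above background on no control array and 68 on no OS array.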
